A study of Mus musculus with 768 samples.

Results

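The cells compared here are mouse embryonic stem (ES) cell derivatives after 18 h of induced motor neuron programming, set against cells after 6 h of the same induction. A cell was kept when at least 2000 genes had a value above 0, which left 53 of 96 cells at 6 h and 56 of 96 at 18 h, or 109 of the 368 cells that pass the same limit among the 768 deposited over 8 time points. All cells came from the line Ainv15(iNgn2.Isl1.Lhx3.V5), in which doxycycline switches on the 3 transcription factors Ngn2 (Neurog2), Isl1 and Lhx3. Embryoid bodies were formed 2 days before doxycycline was given at 3 µg/ml, and both groups received it, so that neither is an uninduced control. The embryoid bodies were dissociated, viable cells carrying a fluorescein diacetate signal were sorted singly into plates of 96 wells, and libraries were made by SMART-Seq2, a full-length method without molecular tags. The labels name no separate cultures within a time point, no clone and no age. Each time point is therefore 1 sample, no test was made, and an SD is the spread between cells. Odd-numbered and even-numbered wells are given as a check on the cells drawn, not as replicates.

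Neurog2 is a proneural basic helix-loop-helix factor that drives neural cells out of the cycle and into neuronal differentiation, while Isl1 and Lhx3 form a LIM-homeodomain complex that selects motor neuron genes in the spinal cord. Expressed together, they convert ES cells towards motor neurons without a lasting stage of dividing neural progenitors. During such a conversion the network around Oct4 (Pou5f1) that holds cells in the pluripotent state gives way, while genes of the cytoskeleton, the axon and the secretory granule come up.

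Values are TPM, a level of transcripts corrected for their length and scaled to the same total in each cell. A change is the log2 ratio of the mean TPM at 18 h to that at 6 h, each with 1 TPM added, which makes changes of low genes appear smaller than they are. Genes were described when their mean was at least 10 TPM and at least 25% of cells were above 0 on the higher side, and 6083 of 27723 genes passed. The median number of genes above 0 was 7484 per cell at 6 h, between 2720 and 8815, and 7348 at 18 h, between 2109 and 9237. The highest cell left out had 1604 genes at 6 h and 1959 at 18 h. Reads per cell are given only as a stated target of 325000. Libraries were made in 2 batches that the labels do not assign to cells, so values within a batch cannot be given, and batch and time point cannot be told apart. The 4 mitochondrially encoded transcripts measured made up a median of 2.75% of TPM at 6 h, between 0.307% and 10.8%, and 6.59% at 18 h, between 0.412% and 29.5%.

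The induced factors were present at both times, and none was 2-fold apart. Lhx3, at chr2:26200212-26208289 of GRCm38, ranged over 6 h cells from 0 through a median of 5.59 to 97.5 TPM, and over 18 h cells from 0 through 11.9 to 211 TPM. The mean went from 13.6 ± 20.1 to 26.9 ± 45.1 TPM, a log2 change of 0.93 that was 0.19 in odd cells and 1.43 in even cells. The ranges overlapped almost entirely, and Lhx3 was above 0 in 69.8% of 6 h cells (exact binomial 95% interval 55.7 to 81.7%) and 75% of 18 h cells (61.6 to 85.6%). Intervals of this kind cover counting error only. Isl1 had means of 12.4 and 20.3 TPM, with a log2 change of 0.67 over all cells but -0.08 in odd cells and -0.39 among cells with 6000 to 9000 genes, so its direction depended on the cells taken. Neurog2 stayed low, at means of 0.894 and 1.44 TPM, and was above 0 in 12 cells at 6 h and 14 at 18 h. The table has 1 row per gene and does not separate the transgene from the endogenous copy. Lhx3 and Isl1 were both above 0 in 31 of 53 cells at 6 h and in 37 of 56 at 18 h.

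Across all passing genes, 720 (11.8%) had means at least 2-fold higher at 18 h and 448 (7.36%) at least 2-fold lower, with a median log2 change of 0.07 and 5th and 95th percentiles of -1.19 and 1.44. The changes in odd cells and in even cells were related across the 6083 genes with a Spearman rho of 0.544, a description, since the genes share the same cells. Requiring at least 2-fold the same way in all, odd and even cells left 377 genes higher (6.2%) and 244 lower (4.01%), of which 304 and 180 carry gene names other than model numbers. Genes of these last counts are described below as past 2-fold in both odd and even cells. Counts of list members given below at 2-fold over all cells are to be set beside the 11.8% higher and 7.36% lower. The genes on the higher side were detected in a median of 54.7% of 6 h cells and 67.9% of 18 h cells, those on the lower side in 83% and 60.7%. Most were thus already, or still, present at the other time: the share of cells above 0 itself moved at least 2-fold for 41 of the 377 and 47 of the 244. How cells are averaged turned the balance of the counts, since medians over cells gave 691 genes higher and 1280 lower, and means of log2 values 370 and 737.

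**Figure D1:**
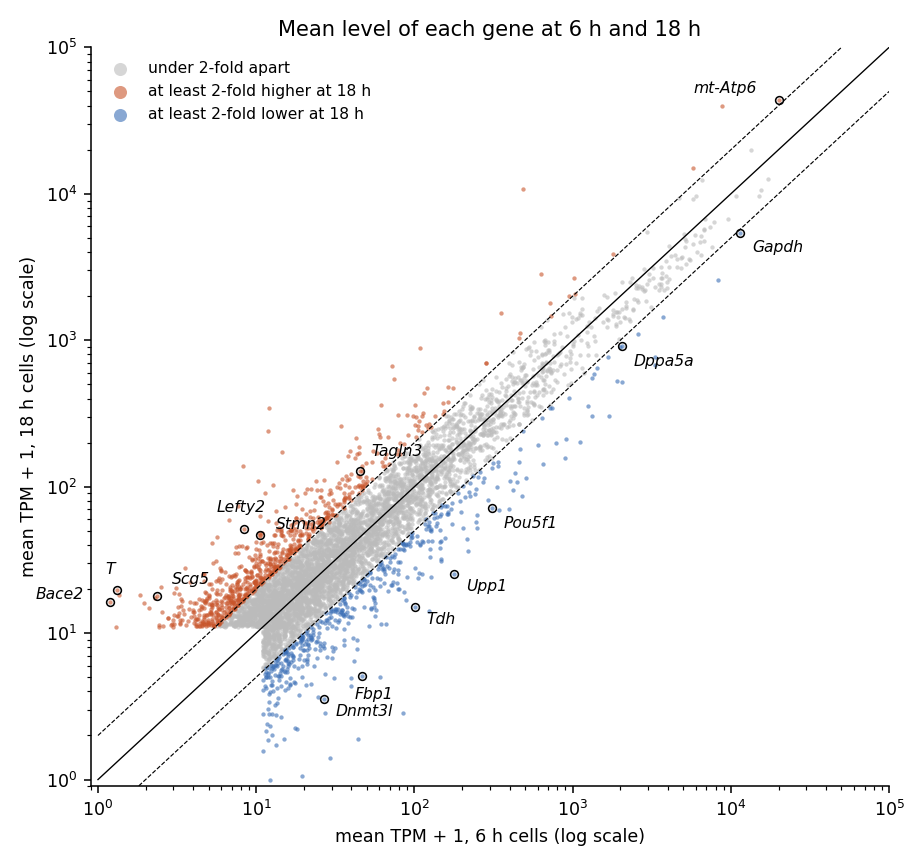
Mean TPM + 1 of each passing gene over the 53 cells at 6 h (horizontal, log scale) and the 56 cells at 18 h (vertical, log scale). The solid line marks equal means and the dashed lines 2-fold; Dnmt3l, Tdh and Pou5f1 lie below the lower dashed line, and Bace2, T and Scg5 above the upper one.

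Genes of the pluripotent state were lower at 18 h. Of 17 core pluripotency genes 11 passed, 7 of them at least 2-fold lower and none higher, with a median log2 change of -1.08 over the 11 against 0.07 over all passing genes. Pou5f1, which encodes the POU factor Oct4 at the centre of this network, ranged from 0 through a median of 316 to 845 TPM in 6 h cells and from 0 through 43.6 to 322 TPM in 18 h cells. The 18 h median lay far under the 6 h median, but cells of the lower kind were present at 6 h and the ranges overlapped. Mean Pou5f1 went from 307 ± 225 to 70.1 ± 80.4 TPM, 4.38-fold lower, with log2 changes of -2.19 in odd and -2.02 in even cells. The transcript was diminished rather than lost: 51 of 53 cells and 50 of 56 cells were above 0. Reads of Pou5f1 could be split with its pseudogenes, and 14.1% of its exon length overlaps another gene model.

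Dppa2 and Dppa4, paired chromatin proteins of the early embryo, were the other core genes past 2-fold in both odd and even cells. Dppa2 went from a range of 0, 85.5 and 360 TPM (lowest, median, highest) to 0, 1.65 and 297 TPM, with means of 107 ± 85.8 and 39.2 ± 64.2 TPM. At 18 h most cells thus held little Dppa2 while some kept the 6 h level, and the share of cells above 0 was 92.5% at 6 h and 53.6% at 18 h. Dppa4 had means of 187 ± 121 and 90.2 ± 91.6 TPM, a log2 change of -1.05. Dppa5a, an RNA-binding protein and the most abundant gene of the list, had means of 2042 and 907 TPM with -2.14 in odd cells but -0.53 in even cells. Utf1, a chromatin-bound factor of ES cells, had means of 63.7 and 24.2 TPM (log2 change -1.36, with -0.99 in even cells), and L1td1, an RNA-binding protein, 44.5 and 20.5 TPM (-1.08, with -0.87 in odd cells). Nanog had means of 77.4 and 29.8 TPM, but 1 cell at 6 h held 2749 TPM, and without the highest cell at each time the log2 change was 0.05. Sall4 (0.15), Lin28b (0.37), Trim71 (-0.15) and the Nodal co-receptor Tdgf1 (-0.26) differed by less than 2-fold in mean. Sox2 did not pass, with means of 2.78 and 3.47 TPM. Of 15 genes of the naive state only Zfp42 and Fbxo15 passed, and Fbxo15 went from 16.6 to 3.54 TPM.

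The DNA methylation machinery was lower as well. All 9 passing members of 11 lay under the median of all genes, and 4 were at least 2-fold lower, with a list median of -0.71. Without the filter 4 of 11 were lower and 1 higher, with a median of -0.43. Dnmt3a and Dnmt3b, the de novo methyltransferases, and Dnmt3l, their catalytically inactive partner, were lower past 2-fold in both odd and even cells. Dnmt3l, at chr10:78041947-78063622, ranged from 0 through a median of 14 to 214 TPM at 6 h and from 0 through 0 to 41.2 TPM at 18 h. The share of cells above 0 was 62.3% at 6 h (47.9 to 75.2%) and 14.3% at 18 h (6.38 to 26.2%), the largest loss of detection among named genes past 2-fold in both odd and even cells. The mean went from 25.7 ± 41.7 to 2.56 ± 7.74 TPM, a log2 change of -2.91. Dnmt3a was found in nearly every cell at both times, with medians of 64.9 and 17.9 TPM and a log2 change of -1.69. Dnmt3b had medians of 37.5 and 10.3 TPM and a log2 change of -1.52. Trim28, the corepressor of zinc finger proteins, had means of 64.8 and 31.9 TPM, with a log2 change of -0.73 in odd cells. In mean log2(TPM + 1) over the 9 genes, 52 of the 56 cells at 18 h lay below the 6 h median. Dnmt3l is among the 9 and passed through its 6 h level, so this count describes the members that passed.

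**Figure D2:**
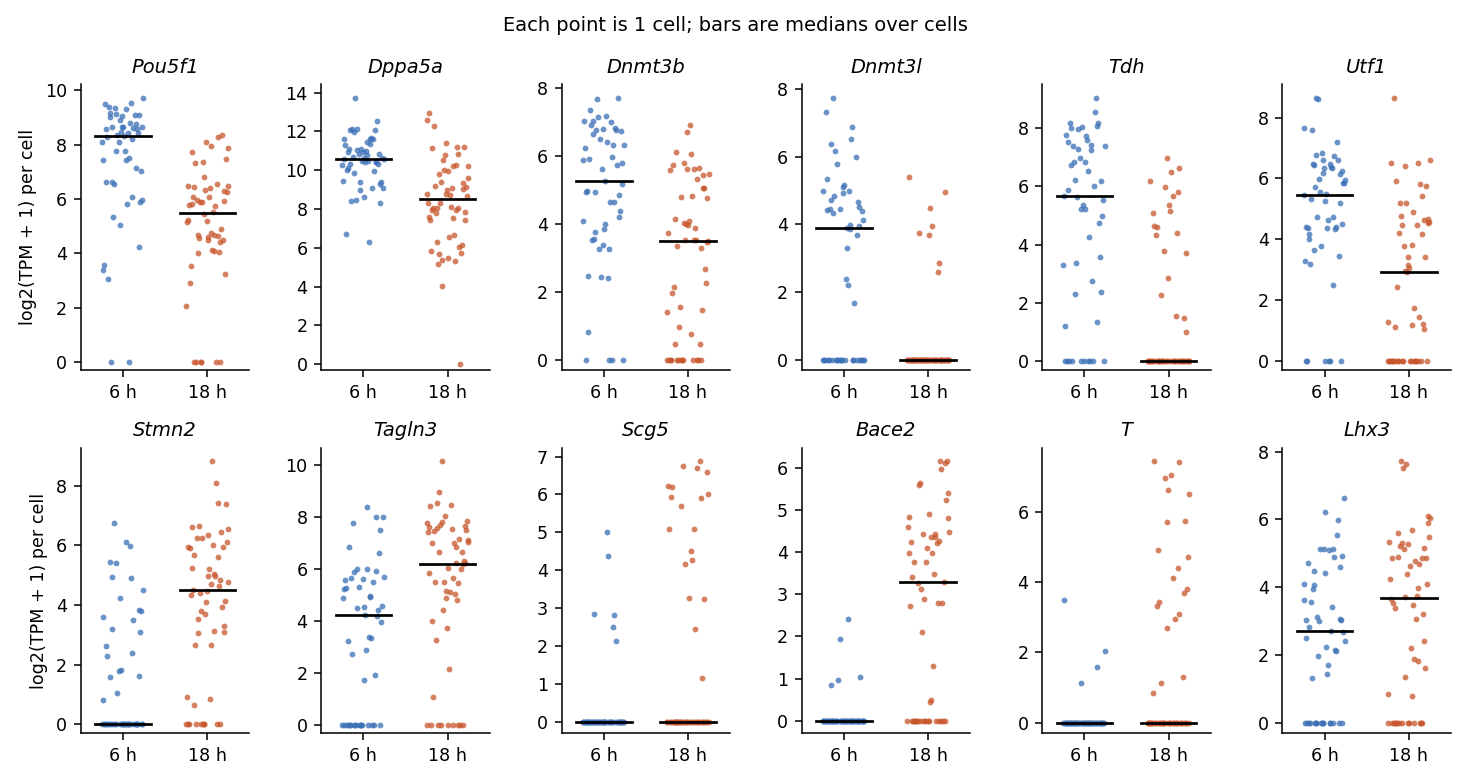
log2(TPM + 1) of 12 genes in each kept cell (points), with the 6 h cells left and the 18 h cells right in each panel and bars at the median over cells. Pou5f1, Dppa5a, Dnmt3b, Dnmt3l, Tdh and Utf1 have lower medians at 18 h, while Stmn2, Tagln3, Bace2 and Lhx3 have higher ones and Scg5 and T keep a median of 0 with more cells above it.

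The promoters of 3 genes are shown, chosen by hand among genes past 2-fold in both odd and even cells that had an annotated window. Pou5f1 and Dnmt3l were on the lower side. T, the gene for the mesoderm factor Brachyury described below, was on the higher side. Each run is from the RefSeq annotation of GRCm38.p6, 250 bases before to 50 after an annotated start, on the + strand. Capitals mark any of 4 motifs on either strand: CAGATG and CAGCTG (E-boxes bound by basic helix-loop-helix factors), TAATTA (a core bound by homeodomain proteins) and ATGCAAAT (the octamer bound by Oct4). The Pou5f1 window is chr17:35505782-35506081, that of Dnmt3l chr10:78042037-78042336, and that of T chr17:8434173-8434472.
Pou5f1: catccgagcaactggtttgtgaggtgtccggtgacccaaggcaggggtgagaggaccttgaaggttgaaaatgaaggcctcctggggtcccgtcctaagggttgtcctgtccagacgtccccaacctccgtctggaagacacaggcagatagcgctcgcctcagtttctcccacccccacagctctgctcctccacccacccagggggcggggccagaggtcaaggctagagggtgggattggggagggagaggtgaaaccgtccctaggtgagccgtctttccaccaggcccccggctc
Dnmt3l: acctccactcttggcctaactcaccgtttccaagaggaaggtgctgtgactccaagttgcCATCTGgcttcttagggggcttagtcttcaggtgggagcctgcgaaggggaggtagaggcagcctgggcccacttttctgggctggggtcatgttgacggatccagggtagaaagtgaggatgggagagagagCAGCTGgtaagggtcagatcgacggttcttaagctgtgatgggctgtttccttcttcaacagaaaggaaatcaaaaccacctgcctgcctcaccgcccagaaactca
T: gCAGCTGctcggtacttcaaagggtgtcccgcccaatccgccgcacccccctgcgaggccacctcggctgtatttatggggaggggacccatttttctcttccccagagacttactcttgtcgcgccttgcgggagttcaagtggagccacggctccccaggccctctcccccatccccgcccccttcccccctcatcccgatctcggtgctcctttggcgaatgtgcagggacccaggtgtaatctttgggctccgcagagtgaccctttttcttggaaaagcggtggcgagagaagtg
The Dnmt3l window holds CATCTG, which is CAGATG on the other strand, at base 61 and CAGCTG at base 194, and the T window holds CAGCTG at base 2. The Pou5f1 window shown has none of the 4 strings, which says only that these letters are not in it; a further annotated Pou5f1 window, chr17:35508557-35508856, holds CAGCTG at base 108. The other 2 annotated windows of Dnmt3l hold none. Among the named genes past 2-fold higher in both odd and even cells, 244 of 304 were matched to 315 windows, of which 8.89% held CAGATG and 12.4% CAGCTG, beside 10.3% and 13.3% of the 5538 windows of all passing named genes. TAATTA was in 3.49% of the windows of the higher genes and 2.55% of those of all passing named genes, and ATGCAAAT in 2.86% and 1.12%. All 32851 windows of the annotation held the 4 strings in 17.2%, 16.3%, 5.29% and 1.74%. The same check is void for the genes on the lower side, since only 139 of 180 (77.2%) were matched.

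Metabolic and secreted genes typical of ES cells made up many of the largest differences. Of 16 listed genes 12 passed, 7 lower and 1 higher, with a median log2 change of -1.25; this list was gathered from earlier results on these cells and its direction is not independent evidence. Tdh, threonine dehydrogenase, with which mouse ES cells feed their one-carbon metabolism, ranged from 0 through 50.4 to 528 TPM at 6 h and from 0 through 0 to 124 TPM at 18 h. Tdh was above 0 in 43 of 53 cells and then in 21 of 56, and its mean went from 100 ± 116 to 14.1 ± 28 TPM, 7.15-fold lower. Upp1, uridine phosphorylase, had medians of 137 and 0 TPM and a log2 change of -2.80. Fbp1, the gluconeogenic fructose bisphosphatase, was above 0 in 60.4% and 16.1% of cells (-3.20), and Spp1, the secreted phosphoprotein osteopontin, in 45.3% and 5.36% (-3.19). Of the Spp1 exon length 18.8% overlaps another gene model. Trap1a, a tumour rejection antigen gene, had means of 112 and 40.6 TPM. Mt2, the metallothionein that binds zinc and copper, had means of 1364 and 588 TPM but passed 2-fold in odd cells only (-1.75, with -0.56 in even cells). Cyp2e1 went the other way in mean, 27.6 and 75.8 TPM, but 1 cell at 18 h held 3237 TPM, and among cells with at least 4000 genes the log2 change was -0.82.

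Other genes with the largest losses encode secreted and surface proteins. Fgfbp1, a carrier of fibroblast growth factors, was above 0 in 14 of 53 cells and then 2 of 56. Tgfbi, an extracellular matrix protein, was above 0 in 17 and then 3 cells, with means of 18.4 and 0.0654 TPM. Folr1, the folate receptor, had a mean of 11.2 TPM in the earlier cells, 14 of them above 0, and none of the 56 later cells had a value above 0, which allows a share of up to 5.36% by the limit of 3 cells and 6.38% by the exact binomial interval. All 3 were thus carried by a minority of the 6 h cells. Enpp2, the lysophospholipase autotaxin, had means of 13.9 and 0.887 TPM, and Lgals9, galectin-9, 10.1 and 0.577 TPM. Gdf3, a TGF-beta family ligand of the early embryo, was more widespread, in 83% and then 37.5% of cells, with a log2 change of -1.54. Depdc7 was in 83% and then 35.7% of cells, and Mep-1beta in 54.7% and then 8.93%. Tuba3b, a tubulin (means of 83.6 and 1.83 TPM), Rpl39l, a copy of a ribosomal protein gene (39 and 3.97 TPM), and Xlr5b (26.3 and 1.85 TPM) belong to families with near-identical copies among which reads can be split, so their values are uncertain.

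Glycolytic enzymes, which are abundant in ES cells, had lower means. Of 23 members 18 passed, 6 at least 2-fold lower and 1 higher, beside 7.36% and 11.8% of all passing genes. The list median was -0.55. Gapdh ranged from 362 through 9960 to 28321 TPM at 6 h and from 109 through 4637 to 23930 TPM at 18 h, with means of 11474 ± 7557 and 5409 ± 4187 TPM. The lactate exporter Slc16a3 (34.9 and 7.25 TPM, -2.12), the glucose transporter Slc2a3 (34.8 and 12 TPM, -1.46) and the lactate dehydrogenase subunit Ldhb (635 and 295 TPM, -1.10) were past 2-fold in both odd and even cells along with Gapdh. Eno1 (1432 and 647 TPM) and Pkm (1983 and 901 TPM), enzymes of the last steps, were just under 2-fold in odd cells (-0.97 and -0.99). Eno3, the muscle enolase, had a higher mean (15.5 and 36.6 TPM), but its median went from 1.99 to 0 TPM. Gapdh had means of 9241 TPM at 24 h and 8636 TPM at 30 h. GC content moves with the glycolytic list, whose transcripts have a median GC of 54.1%, and with the trend in GC removed its median was -0.35 and 2 genes were lower.

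Genes of DNA replication were lower, while those of mitosis were mixed. All 20 S phase genes passed, 4 were at least 2-fold lower and none higher, with a median of -0.60. The shares over all passing genes were 7.36% lower and 11.8% higher. Mcm5, a subunit of the replicative helicase (136 ± 114 and 53.1 ± 47.2 TPM), Cdc45, its partner (51.5 and 20.3 TPM), and Ccne1, the cyclin of S phase entry (26.2 and 10.7 TPM), were past 2-fold in both odd and even cells. All 3 were higher again at 24 h, at 109, 57.9 and 22.1 TPM. Of 23 genes of G2 and M phase, none was 2-fold lower and 2 were higher, beside the same shares, with a median of 0.10. Ccna2, cyclin A2, had means of 13.4 and 31.8 TPM and was past 2-fold in both odd and even cells, while Hmmr (78.3 and 306 TPM) rested on 1 cell with 11693 TPM and gave -0.06 as a mean of log2 values. Cdkn1b, the p27 inhibitor of cyclin-dependent kinases, had medians of 0 and 8.97 TPM and a log2 change of 1.59. Myc had means of 15.9 and 6.04 TPM, at -0.80 in odd cells. Housekeeping machinery moved less: none of 23 passing proteasome genes (median -0.11) and none of 23 passing cytosolic ribosomal protein genes (-0.38) was 2-fold apart in mean, and 22 of those 23 ribosomal genes lay below the median of all genes. Hmgb1 (831 and 828 TPM), Txn1 (804 and 810 TPM) and Atp5h (650 and 645 TPM) were among the genes of at least 500 TPM that changed least.

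**Figure D3:**
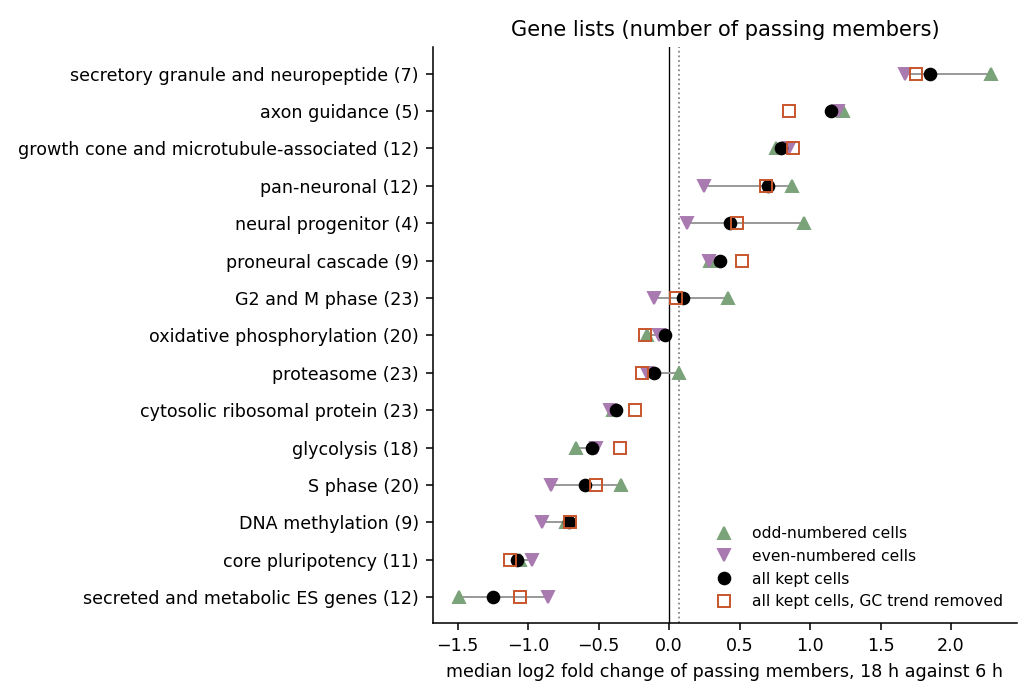
Median log2 change of the passing members of 15 gene lists (numbers of members in parentheses) in all kept cells, odd cells, even cells and with the trend in GC content removed. The solid line marks 0 and the dotted line the median of all passing genes, 0.07; the secretory granule list lies at 1.85 and the core pluripotency list at -1.08.

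The list of secretory granule and neuropeptide genes, called here the secretory granule list, also holds Nnat and Bex2. As a group its members were higher in mean level, though from low levels and in a part of the cells. Of 17 listed genes 7 passed, and 6 of these were at least 2-fold higher in all, odd and even cells, with a median of 1.85; none was lower. As genes this low at 6 h pass the filter through their 18 h level, the count describes the members that passed; without the filter 8 of 17 were higher and 2 lower, with a median of 0.92. Scg5, the chaperone of a prohormone convertase, ranged from 0 through 0 to 31.3 TPM at 6 h and from 0 through 0 to 117 TPM at 18 h. Scg5 was above 0 in 11.3% of 6 h cells (4.27 to 23%) and 33.9% of 18 h cells (21.8 to 47.8%), with means of 1.35 ± 5.16 and 16.9 ± 32.1 TPM. Most cells at 18 h were still at 0. Chga, chromogranin A, was in 13.2% and then 44.6% of cells (1.77 and 11.6 TPM) and Scg3, secretogranin III, in 7.55% and then 30.4% (1.56 and 10.1 TPM). Trh, the precursor of thyrotropin-releasing hormone, had means of 18.6 and 69.9 TPM, and Nnat, neuronatin, an imprinted membrane protein, 15.3 and 46.1 TPM. Bex2 differed from these in being common already, with medians of 76.6 and 198 TPM, above 0 in 86.8% and then 100% of cells. With medians over cells in place of means the list stood at 0.00, with 2 genes higher, since most of its genes had a median of 0 at both times.

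Neuronal genes were higher in part. Of 23 pan-neuronal genes 12 passed, 4 at least 2-fold higher and none lower, with a median of 0.70 that was 0.87 in odd and 0.25 in even cells. Without the filter 5 of 23 were higher and none lower, with a median of 0.26. Stmn2, the microtubule regulator of growing axons at chr3:8509360-8561606, ranged from 0 through 0 to 106 TPM at 6 h and from 0 through 21.5 to 454 TPM at 18 h. Cells above 0 made up 45.3% of 6 h cells (31.6 to 59.6%) and 82.1% of 18 h cells (69.6 to 91.1%). Its means were 9.57 ± 20.5 and 45.7 ± 75 TPM, with log2 changes of 2.95 in odd and 1.14 in even cells, so the groups overlapped at the low end while the 18 h cells reached higher. Tagln3, a neuronal calponin-like protein, had medians of 18.1 and 73.8 TPM and a log2 change of 1.49, past 2-fold in both odd and even cells. Ncam1, the neural cell adhesion molecule (44.6 and 115 TPM), and Map2, the dendritic microtubule protein (5.04 and 14 TPM), were past 2-fold overall but at 0.37 and 0.93 in even cells. Tubb3 (119 and 93.4 TPM), Ina (33.5 and 27.9 TPM), Gap43 (77.5 and 99.9 TPM) and Stmn1 (671 and 804 TPM) differed by less than 2-fold in mean. Dcx and Elavl3, markers of newly born neurons, and Mapt and Rbfox3, of more mature ones, did not pass.

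A few guidance receptors and cytoskeletal genes of the growth cone were higher too. Of 21 axon guidance genes 5 passed and 3 were higher in all, odd and even cells; these 3 were under 10 TPM at 6 h and passed through their 18 h level. Without the filter 5 of the 19 genes above 0 in any cell were higher and none lower, with a median of 0.45 beside 0.03 over all genes. The 3 were Robo2, a receptor for Slit proteins (8.82 ± 15.1 and 33.3 ± 45.1 TPM), Nrp1, the neuropilin receptor of semaphorins (above 0 in 37.7% and 75% of cells), and Sema6a, a transmembrane semaphorin (6.6 and 15.9 TPM). Of 19 growth cone genes 12 passed, 4 higher and 1 lower, beside 11.8% and 7.36% of all passing genes. Marcks, which links actin to the membrane, had medians of 3.08 and 29.8 TPM, Dpysl2, a collapsin response mediator, 1.86 and 20.7 TPM, and Tmsb4x, thymosin beta-4, 369 and 806 TPM. These 3 were raised in most cells rather than in a few. Fez1, a kinesin adaptor, was lower, at 11.5 and 1.8 TPM.

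Few motor neuron genes reached the level described here: 4 of 17 passed. Lmo4, a LIM-only protein that competes for the cofactor Ldb1, ranged from 0 through 2.23 to 76.1 TPM at 6 h and from 0 through 29.8 to 218 TPM at 18 h. It was above 0 in 50.9% of 6 h cells (36.8 to 64.9%) and 91.1% of 18 h cells (80.4 to 97%), a log2 change of 1.89. Ldb1 itself was level, at 11.5 and 10.2 TPM. Slc18a3, the vesicular acetylcholine transporter, had means of 3.96 and 11 TPM and was past 2-fold in even cells only (1.87, with 0.83 in odd cells). Mnx1 (5.93 and 8.41 TPM) and Chat (2.1 and 2.74 TPM) did not pass, and Isl2, Aldh1a2 and Ret were listed at 0 in all 109 cells.

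Among factors of the proneural cascade, 9 of 25 passed. Neurod4, a basic helix-loop-helix factor downstream of Neurog2, had means of 6.77 and 22.1 TPM but 0.28 in even cells, and Neurod1 was level at 55.1 and 56 TPM. Gadd45g had means of 223 and 84.8 TPM with medians of 145 and 3.11 TPM, while its relative Gadd45a had means of 3.85 and 15.7 TPM. Rest, the repressor that keeps neuronal genes off in other cells, had medians of 11.1 and 0 TPM and a log2 change of -1.68, past 2-fold in both odd and even cells. Ptbp2, the neuronal splicing regulator, had medians of 6.05 and 38.2 TPM and a log2 change of 1.71. Among 10 passing subunits of the BAF chromatin remodeller, 2 were higher in all, odd and even cells, beside 6.2% of all passing genes. They were Smarca2 (4 and 20.6 TPM) and Phf10 (4.97 and 25.9 TPM), both under 10 TPM at 6 h, which passed through their 18 h level. The BAF list median was -0.18. Without the filter 3 of 18 were higher and none lower, with a median of 0.07. Of 20 Notch pathway genes 6 passed, and Dll1, a Notch ligand, had means of 28.6 and 11.9 TPM (-0.40 in odd and -2.01 in even cells). Neural progenitor genes showed no 2-fold difference among the 4 that passed; Pax6 had means of 15.3 and 30.8 TPM with -0.07 in even cells.

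The genes with the largest gains were mostly outside these lists. Bace2, an aspartyl protease at chr16:97356742-97442936, ranged from 0 through 0 to 4.31 TPM at 6 h and from 0 through 8.75 to 70.9 TPM at 18 h. Bace2 was above 0 in 9.43% of 6 h cells (3.13 to 20.7%) and 67.9% of 18 h cells (54 to 79.7%), with means of 0.188 ± 0.725 and 15.2 ± 19.3 TPM. This was the largest gain in detection among named genes past 2-fold in both odd and even cells, and the median of the 18 h cells lay above the highest 6 h cell. Odz3, a teneurin adhesion protein, was above 0 in 32.1% and 78.6% of cells (log2 change 2.62). Lefty2, a secreted inhibitor of Nodal, had means of 7.35 and 50.4 TPM, and Lefty1 52.9 and 112 TPM with 0.33 in odd cells. Rab38, a small GTPase of vesicle transport, had medians of 0 and 20.4 TPM. Nup62cl had medians of 0 and 22.9 TPM, and Lix1 of 0 and 3.17 TPM. Idh2, the mitochondrial isocitrate dehydrogenase, was in 26.4% and 67.9% of cells, F2r, the thrombin receptor, in 34% and 71.4%, Tspan12 in 35.8% and 73.2% and Litaf in 35.8% and 73.2%.

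T, at chr17:8434423-8442496, encodes Brachyury, the T-box factor of the primitive streak and early mesoderm. It ranged from 0 through 0 to 10.3 TPM at 6 h and from 0 through 0 to 174 TPM at 18 h, and was above 0 in 4 of 53 cells (7.55%, 2.09 to 18.2%) and then in 22 of 56 (39.3%, 26.5 to 53.2%). Its mean was 0.314 ± 1.49 and then 18.7 ± 42.2 TPM, a log2 change of 3.91 (4.09 in odd and 3.65 in even cells). T was thus above 0 in a minority of cells at both times and high in some of the 18 h cells. Of the 17 genes of the primitive streak and mesoderm list no other passed: Mesp1, Wnt3a, Cdx2, Cdx4, Gsc, Msgn1 and Hand1 were listed at 0 in all cells, and the summed level of the list ranged from 0 through 0 to 32.3 TPM at 6 h and from 0 through 6.25 to 201 TPM at 18 h. All 22 cells with T at 18 h were also above 0 for Pou5f1, 20 of them for Stmn2 and 18 for Lhx3. Of the 18 h cells without T, 28 were above 0 for Pou5f1 and 6 were not. For Stmn2 these numbers were 26 and 8, and for Lhx3 24 and 10. The 3 transcripts were thus common at 18 h with or without T.

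Markers of other cell types gave the following. None of 14 endoderm, 9 trophoblast, 9 neural crest, 10 glial, 12 sensory neuron, 14 interneuron, 11 ventral spinal progenitor or 14 Hox genes passed. Sox17, Cxcr4, Apoa1 and Hnf4a of endoderm, Sox10 and Pax7 of neural crest and Olig2, Nkx2-2 and Shh of the ventral spinal cord were listed at 0 in every kept cell of both times. The summed neural crest level had a median of 10.6 TPM at 6 h, between 0 and 337 TPM, and 4.5 TPM at 18 h, between 0 and 69.2 TPM. Of 9 fibroblast genes only Col1a2 passed, at 21.1 and 28.8 TPM. Lhx3 and Isl1 are the induced factors and do not check the motor neuron label. Of the other markers, the early neuronal genes Stmn2 and Tagln3 were present, while Dcx, Elavl3, Isl2, Ret and the ventral spinal genes did not pass. Of 23 pan-neuronal genes 12 passed and 4 were at least 2-fold higher, and Tubb3 and Ina had lower means at 18 h.

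Pluripotency and neuronal transcripts were found in the same cells. Stmn2 and Pou5f1 were both above 0 in 24 of 53 cells at 6 h and 43 of 56 at 18 h. As the mean log2(TPM + 1) of the 11 core pluripotency genes, 43 of 56 cells at 18 h lay below the 6 h median, and for the 12 pan-neuronal genes 42 lay above it. Across cells the 2 scores had a Spearman rho of -0.08 at 6 h (53 cells) and -0.09 at 18 h (56 cells), but both scores vary with the number of genes detected, with a rho of 0.48 and 0.31 at 18 h. Among cells with at least 6000 genes, a limit chosen after seeing the data, rho was -0.50 at 6 h (40 cells) and -0.66 at 18 h (40 cells). These values describe cells that share a culture. The scores use only members that passed the filter. Stmn2 and Map2 of the pan-neuronal list and Scg5, Chga and Scg3 of the secretory granule list passed through their 18 h level. With that limit, the secretory granule score was above the 6 h median in 49 of the 56 cells at 18 h. The score of secreted and metabolic ES genes, a list gathered from earlier results on these cells, was below its 6 h median in 53. None of the counts of cells by score, including the 43 and 42 above, is independent evidence of a direction.

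At 24 h and 30 h, times that the comparison does not use, genes of the lower side differed. Gapdh, Mcm5, Cdc45 and Ccne1, as given above, were higher at 24 h than at 18 h, while others stayed low. Dnmt3l had means of 3.02 and 3.5 TPM, Tdh 11.5 and 12.4 TPM and Dppa4 88.6 and 72.8 TPM at 24 h and 30 h, close to their 18 h means. Pou5f1 was at 115 TPM at 24 h and 53.4 TPM at 30 h, both below its 307 TPM at 6 h. On the higher side Stmn2 reached 132 and 124 TPM, Tagln3 270 and 224 TPM and T 36.2 and 49.3 TPM, above their 18 h means, and Bace2 was at 23.8 and 24.3 TPM. Other genes were lower at 24 h than at 18 h. Tpt1, which encodes an abundant protein tied to translation and growth, had means of 71.1 ± 244 at 6 h, 666 ± 1320 at 18 h and 52.8 TPM at 24 h; it has many processed copies, so its reads can be split. Ap3s1, an adaptor subunit of vesicle coats, was at 4.27, 40.3 and 6.92 TPM at 6, 18 and 24 h. Lefty2 was at 25.2 TPM and Zfp119 at 6.49 TPM at 24 h, both between their 6 h means (7.35 and 1.28 TPM) and their 18 h means (50.4 and 16.5 TPM).

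**Figure D4:**
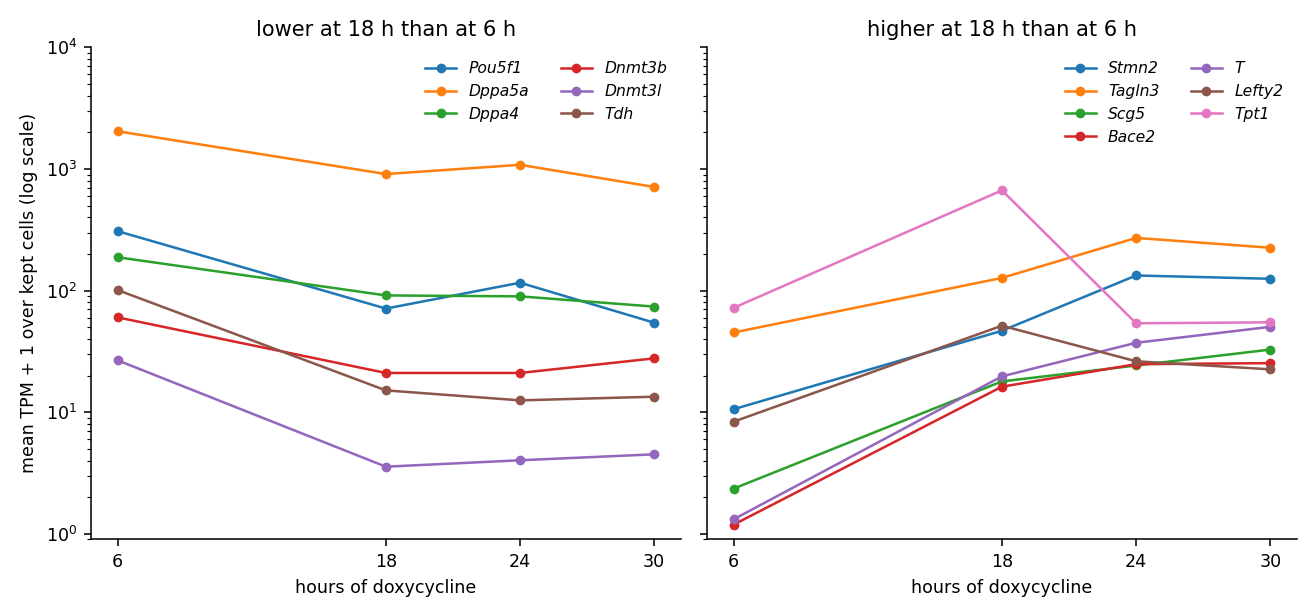
Mean TPM + 1 over the kept cells (log scale) at 6, 18, 24 and 30 h of doxycycline for 6 genes lower and 7 higher at 18 h than at 6 h; lines join the means and no error is drawn. Of the 4 times drawn Tpt1 is high at 18 h, at 666 TPM, while Stmn2, Tagln3, Scg5 and T are higher at 24 h than at 18 h.

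The cells at 0 h and 12 h give a separate comparison that shares no cell with the present one, although they stand apart as a set by Sod1, with means of 65262 and 53733 TPM against 731 TPM at 6 h and 594 TPM at 18 h. In it 17% of 5848 passing genes were at least 2-fold higher at 12 h and 13% lower. Of the 377 genes higher in both odd and even cells at 18 h, 223 also passed there, and 79 were higher and 10 lower at 12 h. Their median log2 change was 0.55 beside 0.05 over the 4346 genes passing in both. Of the 244 on the lower side, 173 passed, and 40 were lower and 16 higher, with a median of -0.39. The core pluripotency list had a median of -0.99 there with 7 of 14 genes lower, and the pan-neuronal list 1.98 with 8 of 10 higher.

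Some large means rested on 1 cell. Qtrtd1 had means of 9.32 and 108 TPM, but its medians were 1.33 and 1.08 TPM and 1 cell at 18 h held 5527 TPM. Zfp82, with means of 7.27 and 138 TPM, had 1 cell with 7071 TPM and was at -0.35 in even cells, and Ypel3 was at 2.81 in odd and -1.31 in even cells. In all 3 the mean describes 1 cell and not the group. Mtrnr2l, related in sequence to mitochondrial ribosomal RNA and therefore uncertain, had means of 10.9 and 239 TPM. A single cell held 10682 TPM of it, and without the highest cell at each time its log2 change was 2.26 in place of 4.33. B3galnt1, a glycosyltransferase, was at 3.75 and at 1.89 without its highest cell. Gpm6b, a neuronal membrane glycoprotein, kept 2.52 of 3.03, and Ndufa4l2 2.33 of 2.97.

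The base composition of transcripts moved with the whole comparison. The log2 change was related to GC content across 5755 genes with a Spearman rho of -0.369, a description over genes that share the same cells, while the same measure for 12 h against 0 h was -0.030. The 576 genes lowest in GC (up to 41.3%) had a median change of 0.54, with 26.6% at least 2-fold higher and 3.3% lower, and the 576 highest (from 57.2%) a median of -0.24, with 6.25% higher and 10.2% lower. The median GC was 45.4% for the genes higher in both odd and even cells, 52.9% for those lower and 49.3% for all. Within each time point, cells with a larger mitochondrial share had a lower GC content of their transcripts, weighted by TPM. Spearman rho was -0.773 at 6 h and -0.903 at 18 h. The weighted GC itself counts mt-Atp6 and mt-Nd4, with GC of 36.1% and 35.6%, so this relation is in part built in. Among the mitochondrially encoded transcripts mt-Atp6 had means of 20222 and 43459 TPM and mt-Co2 5783 and 15034 TPM. The median mitochondrial share was 3.08% at 24 h and 3.58% at 30 h.

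With the trend in GC removed, 460 genes were higher and 397 lower, against 661 and 385 of the same genes before, and 406 and 305 were in both counts. The core pluripotency median was then -1.13, that of the secretory granule list 1.75 and that of the pan-neuronal list 0.69. Among 42 cells at 6 h and 29 at 18 h with mitochondrial shares between 1.25% and 7.86%, the core pluripotency median was -0.84, the pan-neuronal median 0.43 and the secretory granule median 1.28. The direction of these lists was thus the same within this band, with smaller medians. The band limits the shares but does not make those of the 2 times equal, and an effect of mitochondrial share was not tested. With the 83 wells under 2000 genes included, the core pluripotency median was 0.10 and Pou5f1 was at 0.36, the opposite direction.

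**Figure D5:**
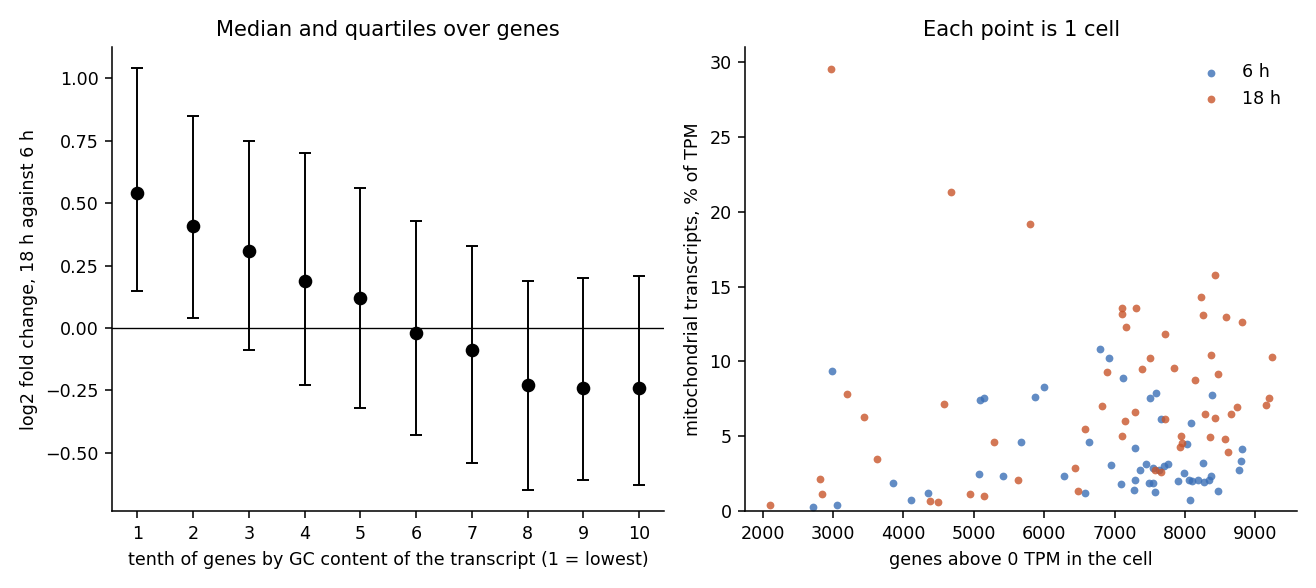
Left, median (points) and quartiles (bars) of the log2 change from 6 h to 18 h in 10 groups of genes by GC content of the transcript, falling from 0.54 in the lowest to -0.24 in the highest. Right, mitochondrially encoded transcripts as % of TPM against genes above 0 TPM for each cell, with 6 h cells between 0.307% and 10.8% and 18 h cells between 0.412% and 29.5%.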

How the data were processed

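Single-cell RNA-seq of embryoid body cells was used as deposited by the authors, as TPM per gene and cell in 1 table; per the labels' protocols the reads were 50 bp and single-end, and the columns sum to between 999999 and 1000001. Bcl2fastq, Picard and the build mm10 appear in the submitters' processing notes. For aligner and annotation nothing is stated in these sources, and each column name ends in the name of the quantifier RSEM. TPM keeps no depth, so no count model applied, and a rise of abundant transcripts lowers all others in a cell. The limit for keeping a cell was 2000 genes above 0. Doublets were not called, because wells were sorted as single cells. Changes are log2 ratios of mean TPM + 1 with 2-fold as the limit, for genes of at least 10 TPM and 25% of cells on the higher side. No test was made, since each time point is 1 sample. Intervals of shares are exact binomial (Clopper-Pearson) at 95%, and where no cell was above 0 the limit is 3 cells of the total. GC content came from GENCODE transcripts of GRCm38, and its trend was removed by a local linear fit (span 0.3). The genes named are the induced factors, the 15 largest changes each way and the 10 largest gains and losses of detection past 2-fold in both odd and even cells, the 5 least changed genes of at least 500 TPM, the 5 with the widest spread at 18 h, and members of 58 gene lists (822 genes, 787 matched by symbol and 20 by a synonym). A few of these genes are not reported here. The members and lists were chosen with earlier results of these data known. The procedure was tested on simulated data. Alternatives covered the pseudocount, scaling, averaging, filters and cells taken; GC and mitochondrial share were added after seeing the data. The work was done in Python 3.11.15 with scipy 1.17.1 for intervals and correlations, pandas 2.3.3 and numpy 2.4.6 for tables, and matplotlib 3.10.9 for figures.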

Additional observations from a re-analysis of the deposited data

How the results depend on the processing

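How many genes passed 2-fold (720 higher, 448 lower) depended on the settings. They were 274 and 207 with a pseudocount of 10 TPM, 370 and 737 from means of log2 values, 1742 and 1126 without a filter, 421 and 291 with a filter of 20 TPM and 50% of cells, and 1248 and 787 with all wells. From medians over cells 1280 genes were lower, 1151 were higher with TPM rescaled without the 50 highest genes, which moved the median of all genes to 0.18, and 460 were higher with the GC trend removed. The core pluripotency median (-1.08) was -0.98 with a pseudocount of 10. It was -0.71 in cells with at least 1000 genes and -0.97 with at least 4000 genes. With the filter applied anew it was -0.97 in odd and -0.97 in even cells. It was -0.96 rescaled and -0.84 within the band of mitochondrial share. With all wells it was 0.10. The pan-neuronal median (0.70) was 1.25 from medians over cells. With all wells, which include 83 under 2000 genes, direction turned for Dppa4 (0.03), Dpysl2 (-0.84), Gpm6b (-1.37), Idh2 (-0.54), Mtrnr2l (-1.01), Myc (0.02), Pou5f1 (0.36), Ptbp2 (-0.94), Rest (1.60), Slc18a3 (-1.44), T (-1.17) and Utf1 (1.15). It also turned for Slc18a3 (-0.96) with at least 1000 genes, Cyp2e1 (-0.82) with at least 4000, Eno3 (-1.58) from medians and Hmmr (-0.06) from means of log2 values. Nanog was 0.43 with at least 4000 genes, 0.49 with 6000 to 9000 and 0.30 in even cells. It was 0.05 without its highest cell and 0.55 within the band of mitochondrial share. The cause was not tested. No paired analysis was possible because each time point is 1 sample and cell numbers pair nothing. Depth per cell is unknown, so low genes at 0 may be missed transcripts.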

Other observations

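Genes that make ribosomes, as distinct from the proteins in them, were lower at 18 h. This list and the next ones were written after the values were seen, so their counts are descriptions. Of 50 ribosome biogenesis genes 48 passed, 18 were at least 2-fold lower and none higher, and 46 lay below the median of all genes, with a list median of -0.77 (-0.61 in odd and -0.93 in even cells, and -0.87 with the trend in GC removed). Nhp2, a protein of the pseudouridylation particles, had means of 720 and 344 TPM, Nip7, an assembly factor, 338 and 147 TPM, and Nolc1, a nucleolar chaperone, 160 and 64 TPM. Tcof1, the treacle protein of the nucleolus, and Polr1b, a subunit of RNA polymerase I, had log2 changes of -1.45 and -1.42. In the separate comparison of 12 h with 0 h, 6 of 47 were lower and none higher, with a median of -0.25; 13% of all passing genes were lower there, so this share is near the background.

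Genes better known from the germline, which ES cells also express, gave a mixed result. Of 30 listed, 28 were matched and 12 passed. Of these 12, 8 were under 10 TPM at 18 h and passed through their 6 h level, so the count of 8 at least 2-fold lower, 7 of them in both odd and even cells, describes only the members that passed. Their median was -1.72, and that of all 28 matched genes -0.26. Ddx4, a germ cell RNA helicase that did not pass, went the other way, with means of 1.58 and 7.67 TPM. Tex19.1, which restrains transposons, was above 0 in 39 of 53 and in 17 of 56 cells. Fkbp6, a cochaperone of spermatocytes, had means of 40.1 and 8.21 TPM, and Hormad1, a protein of the meiotic chromosome axis, 35 and 7.97 TPM.

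Among 27 passing genes of glutathione and antioxidant metabolism 7 were lower and 1 higher, beside 7.36% and 11.8% of all passing genes. Their median was -0.30, and that of all 30 matched genes -0.42. Of the 27, 4 were under 10 TPM at 1 of the times and passed through the other. Nqo1, a quinone reductase, had means of 110 and 24.5 TPM (above 0 in 47 and 24 cells), Gpx4, the lipid peroxidase, 429 and 123 TPM, and Ftl1, the ferritin light chain, 460 and 147 TPM. Gstp1 had means of 947 and 404 TPM and its near-identical neighbour Gstp2 122 and 13.2 TPM, between which reads can be split. Mgst1, a microsomal transferase, was the 1 gene at least 2-fold higher, at 9.51 and 30.2 TPM, and passed through its 18 h level. Others such as Gsto1, Cat and Sod2 had higher means by less than 2-fold, and 21 of the 27 genes lay below the median of all genes. Msrb2, a methionine sulfoxide reductase, was above 0 in 73.6% and then 30.4% of cells.

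The housekeeping gene Hprt had means of 14.1 and 71.8 TPM and was above 0 in 60.4% and 67.9% of cells.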
